A study of Mus musculus with 4 samples.

Results

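Described here are 45 genes of complement and epithelial innate defence, among the 28096 genes measured in mouse alveolar type II cells, which make the surfactant that lines the lung's air sacs. They were chosen by name for their known roles: complement components and regulators, lysozymes and other antimicrobial proteins, pattern receptors and their adaptors, and NF-kB pathway genes. The rule of choice used no measured level, but earlier results of these data were known when the genes were chosen. Of the 45, 44 were found in the deposited tables by their current symbol and 1, C1s (now C1s1), by a synonym. Polyadenylated RNA was sequenced in 4 libraries that share the genotype label KRasEtv wt. Type II cells had been sorted from lung by surface EpCAM and by the absence of CD24, CD45, CD31 and Pdpn. They were then cultured in matrigel and BEGM medium, with 100 nM 4-hydroxytamoxifen (4OHT) for 4 days and without it for 1 more day.

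The design names 3 genotypes with 4 mice each, and all of them carry KRaswt/d12 and RosaCreERT2, a Cre recombinase that tamoxifen switches on. The Cre is driven from the Rosa locus, which is active in most cell types. One genotype has these alleles alone, another adds Etv5loxp/loxp, and the remaining one adds both Etv4KO/KO and Etv5loxp/loxp. The labels do not say to which of them KRasEtv wt refers, and other groups were not analysed here. The 4 libraries therefore form 1 group without a contrast, and levels and their spread between libraries are described. Libraries 1 to 4 are names in accession order. The labels do not tie them to separate mice, so p-values measure only the spread between these libraries. By the sex-linked genes given below, library 3 has the pattern of female cells and the others that of male cells. Library 3 is therefore not a technical repeat of the others. How much of the spread is technical is otherwise unknown.

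Complement is a cascade of plasma and cell-surface proteins that tags and lyses microbes. The classical and lectin pathways (C1, C4, C2 and the Masp proteases) and the alternative pathway (Cfb, Cfd, properdin) both converge on C3. Cleaved C3 leads to cleavage of C5, encoded in mice by Hc, and to a pore made of C5b, C6, C7, C8 and C9, while Cd55, Cd59a and other regulators protect host cells. Toll-like receptors recognise microbial molecules and signal through Myd88 or Ticam1 to NF-kB, whose inhibitors are among its own target genes. Type II cells are known as a source of lysozyme, surfactant collectins and complement proteins in the lung.

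Total counts were 12133251, 12987938, 12928901 and 13591876 in libraries 1 to 4, so a count of 0 allows up to 3 counts, or 0.221 to 0.247 CPM. These limits cover counting error only. Levels are the deposited nRPKM, which are adjusted for the size of the library and the length of the gene. Pearson r of log2(nRPKM + 1) across genes was 0.977 to 0.984 between libraries, and no pair of libraries was a duplicate (chi-square of their counts divided by the degrees of freedom, 42.2 to 123). All 12 type II markers had a mean of at least 10 nRPKM, led by Sftpc, Sftpb and Cxcl15, and all 12 were lowest in library 1 (10 of 12 in CPM). Mitochondrial rRNA took 23.0%, 35.1%, 19.6% and 38.9% of the counts of libraries 1 to 4. Relative to CPM, the deposited scaling raised every gene by 1.23, 1.04 and 1.40 times in libraries 2 to 4 over library 1, so which library is highest or lowest for a gene can depend on it. Library 3 stood apart in sex-linked genes, with Xist at 66.3 nRPKM against at most 0.784 in the others. Eif2s3y (0.243 against 14.6 to 23.2), Ddx3y (0.0309 against 3.54 to 6.21), Kdm5d (0 against 2.44 to 4.03) and Uty (0 against 3.49 to 3.85) were lowest there. This is the pattern of female cells in library 3 and of male cells in the others. Of 18 leukocyte markers, 9 had a mean of at least 1, led by Cd68, Fcer1g and Tyrobp, and their summed level was 24.4 to 83.8 nRPKM. No endothelial marker of 7 reached a mean of 1 (Pecam1, Kdr and Cdh5 were highest) and no hepatocyte marker of 5 did (Alb and Apoa1 highest, with Ttr, Serpina1a and Fgb at 0 counts).

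A mean level of at least 1 nRPKM was reached by 27 of the 45 genes, beside 42.4% of all genes, and 24 had at least 1 in all 4 libraries, beside 38.8% of all genes. At least 10 nRPKM was reached by 10 of 45 (13.9% of all genes) and at least 100 by 2, Lyz2 and Lcn2 (0.826% of all genes). The median of the 45 mean levels was 2.05 nRPKM, and that of all genes was 0.345. Among genes with a mean of at least 1, the median was 5.59 for the 27 and 5.82 for all 11904. Those at 10 or more were 3 secreted antimicrobial genes, 3 co-receptors for lipopolysaccharide, C3, Hc, Cd55 and C1qbp. No read at all was counted for 1 of the 45, C9 (26.8% of all genes), and 8 of 45 had at most 3 reads in every library (38.8% of all genes).

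**Figure D1:**
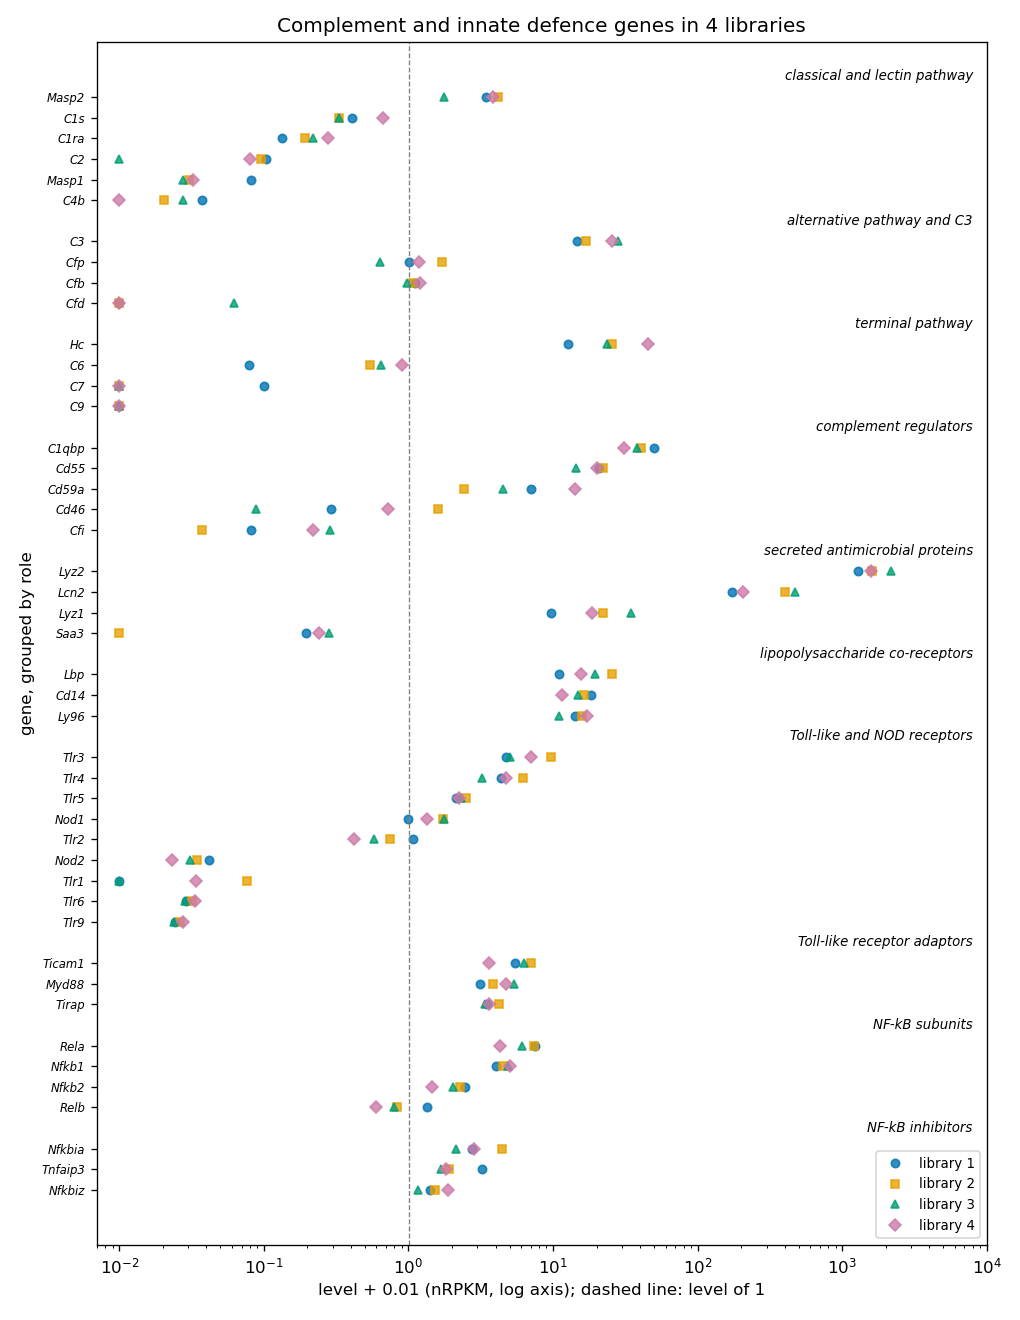
Level of each of the 45 genes in nRPKM plus 0.01 on a log axis, grouped by role, with 1 symbol per library; a symbol at the left edge is a count of 0. The secreted proteins Lyz2 and Lcn2 lie at the top of the range, and the Toll-like and NOD receptors spread from below 0.1 to almost 10 nRPKM.

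The secreted antimicrobial genes were the most abundant of the 45. Lyz2, the lysozyme of macrophages and type II cells, which cleaves bacterial cell walls, had 1283, 1601, 2191 and 1578 nRPKM in libraries 1 to 4 (mean 1663 ± 381, SD, n = 4). Lcn2, lipocalin 2, which withholds iron from bacteria by binding their siderophores, had 173, 401, 475 and 207 nRPKM (314 ± 147). Lyz1, the lysozyme of Paneth cells in the gut, had 9.62, 22.2, 34.7 and 18.5 nRPKM (21.3 ± 10.4). All 3 peaked in library 3, in nRPKM and in CPM. Their lowest library was library 1 in nRPKM, but library 4 for Lyz2 and Lcn2 in CPM. Saa3, an acute-phase serum amyloid gene, had 2, 0, 3 and 2 reads in the same libraries, at or under the floor of 3.

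Lyz1 and Lyz2 lie next to each other in gene order (GRCm38.p6) and are close copies, which bears on reads that were kept only when they aligned uniquely. Their coding sequences (GENCODE M21 transcripts) both have 444 bases and differ at 22 of them. The longest run in common is 118 bases. The first 90 coding bases are shown 5′ to 3′ to make the copies visible, with the 7 bases that differ in capitals.

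Lyz1: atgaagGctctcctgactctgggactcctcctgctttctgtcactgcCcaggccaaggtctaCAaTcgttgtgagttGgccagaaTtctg

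Lyz2: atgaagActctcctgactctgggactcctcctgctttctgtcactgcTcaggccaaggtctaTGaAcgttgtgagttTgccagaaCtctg

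Of the 50-base words of the longest transcript, 16.1% of Lyz1 and 15.4% of Lyz2 also occur in another gene, each most often in its partner, so both levels are uncertain. Per length, Lyz2 exceeded Lyz1 by 88.4 ± 31.3 times (SD, n = 4), with ratios of 63.2 to 133. The ratio was highest in library 1.

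Lyz2 is also a macrophage gene. The summed leukocyte markers had 83.8, 75.4, 33.7 and 24.4 nRPKM in libraries 1 to 4, and Lyz2 was highest in library 3. The part of leukocytes in the level of Lyz2 was not tested. Other secreted defence genes listed beside the 45 comprised 26, of which 13 had a mean of at least 1, and none was called in the test of spread described below. The highest were Cxcl15, a lung chemokine gene (1527 ± 404 nRPKM), Wfdc2, a protease inhibitor gene (437 ± 187), and Sftpa1, a surfactant collectin gene (335 ± 121; SD, n = 4).

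Unique reads of the first complement steps were few, apart from Masp2. Among the classical and lectin pathway genes, 1 of 6 had a mean of at least 1. C1s, whose protease cleaves C4 and C2, had 0.394, 0.321, 0.320 and 0.658 nRPKM, and C1ra, which activates C1s, had 0.124, 0.184, 0.207 and 0.267. These levels rested on 17 to 32 reads for C1s and 7 to 12 for C1ra. C2 (0 to 5 reads per library), C4b (0 to 3) and Masp1 (1 to 4) were at or just above the floor. Masp2, a lectin pathway protease made mainly in liver, was the exception with 3.44, 4.18, 1.75 and 3.81 nRPKM (3.30 ± 1.07, SD, n = 4). Its longest transcript overlaps Tardbp on the other strand and shares 57.2% of its 50-base words with other genes. Whether the counting used strand is unknown, so Masp2 and Tardbp reads cannot be told apart. C1ra shares 50.8% of its words, most often with C1rb, C1s 39.0%, most often with C1s2, and C4b 35.2%, most often with C4a, so low unique counts of these 3 do not show how much RNA they had.

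C3, the protein on which the pathways converge, was among the 10 genes above 10 nRPKM. It had 14.6, 16.9, 28.1 and 25.5 nRPKM (21.3 ± 6.53, SD, n = 4), from 1525 to 3020 reads, and shares no word with another gene. Libraries 3 and 4 were the high ones. The alternative pathway genes that act on C3 were lower. Cfb, the protease subunit of its convertase, had 1.11, 1.07, 0.974 and 1.18 nRPKM from 52 to 62 reads. Cfp, properdin, which stabilises that convertase and is known from leukocytes, had 0.998, 1.70, 0.627 and 1.17. Cfd, the protease that activates Cfb, had a single read in library 3 and none elsewhere. Cfb and its neighbour C2 share 81.4% and 58.0% of their words with other genes. Both share most with an annotated gene that overlaps them on the same strand, so their levels are uncertain.

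Of the 4 terminal pathway genes, Hc alone had a mean of at least 1. Hc, the gene of C5, had 12.6, 25.6, 23.6 and 45.2 nRPKM (26.8 ± 13.6, SD, n = 4), from 1398 to 4011 reads. It was lowest in library 1 and 3.59-fold higher in library 4. C6 had 0.0691, 0.535, 0.639 and 0.885 nRPKM on 4 to 41 reads, likewise lowest in library 1 and highest in library 4. C7 had 5 reads in library 1 and none in the others. C9 had none in any library. Library 1 was also the one with the highest summed mesenchymal markers (29.8 nRPKM, against 5.77 to 18.4 in the others), and the part of such cells in the C7 reads was not tested.

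Of the 5 regulators, 3 had a mean of at least 1 and 2 had at least 10. C1qbp, a mainly mitochondrial protein that also binds C1q, had 50.2, 40.3, 38.1 and 30.9 nRPKM (39.9 ± 7.96). Cd55, which speeds the decay of C3 convertases on the cell surface, had 20.6, 22.3, 14.4 and 20.1 (19.3 ± 3.45, SD, n = 4). Both were therefore well above 10 in every library. Cd59a, which blocks the terminal pore, had 7.02, 2.39, 4.51 and 14.3 nRPKM (7.05 ± 5.17), a 5.96-fold range on 77 to 421 reads. Library 4 was the high one and library 2 the low one, and the mean fell to 4.64 without library 4. Cd46, a cofactor for C3b cleavage found in mice mainly in the testis, had 7, 34, 2 and 14 reads, and its mean of 0.662 nRPKM became 0.357 without library 2. Cfi, the plasma protease that cleaves C3b, had 3, 1, 12 and 7 reads. Cd46 shares 16.5% of its words with other genes, most often with a gene that overlaps it on the other strand. Cd55 shares 15.5%, most often with Cd55b, so the levels of both are uncertain.

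Of 34 further complement genes, 6 had a mean of at least 1 and none of the 12 tested was called for spread. Clu, clusterin, an inhibitor of the terminal complex, led with 378 ± 81.9 nRPKM, followed by Cr1l (Crry), a membrane regulator of C3 convertases in rodents, with 13.9 ± 1.86, and Itgb2, a leukocyte integrin gene, with 3.03 ± 1.87 (SD, n = 4). Chosen after their values were seen, the C1q chain genes C1qa, C1qb and C1qc, made by macrophages, had means of 0.325, 0.840 and 0.609 nRPKM.

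The genes that bind and present lipopolysaccharide, the outer membrane lipid of Gram-negative bacteria, were all present. Lbp, the plasma protein that extracts it, had 10.9, 25.4, 19.4 and 15.7 nRPKM (17.8 ± 6.10). Cd14, which passes it on, had 18.2, 16.3, 15.0 and 11.5 (15.2 ± 2.81). Ly96 (MD-2), which holds it against Tlr4, had 14.1, 15.97, 10.9 and 17.2 (14.5 ± 2.73, SD, n = 4). The 3 genes lay within a similar range but had different high libraries: library 2 for Lbp, library 1 for Cd14 and, in nRPKM, library 4 for Ly96 (library 1 in CPM).

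The receptors were lower than these co-receptors, and 4 of 9 had a mean of at least 1. Tlr3, the receptor for double-stranded RNA, led with 4.73, 9.65, 5.02 and 7.03 nRPKM (6.61 ± 2.27). Tlr4, the signalling receptor for lipopolysaccharide, had 4.35, 6.16, 3.19 and 4.70 (4.60 ± 1.23). Tlr5, the flagellin receptor, had 2.12, 2.50, 2.28 and 2.22 (2.28 ± 0.162, SD, n = 4). Tlr5 had the smallest spread of the receptors with more than 3 reads in every library, with a coefficient of variation of 7.09% in nRPKM, while Tlr3 and Tlr4 were both highest in library 2. Nod1, a cytosolic sensor of peptidoglycan fragments, had 0.989, 1.72, 1.76 and 1.33 nRPKM, and its relative Nod2 had 1 to 3 reads per library.

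Tlr2, which recognises bacterial lipoproteins as a heterodimer with Tlr1 or Tlr6, had 1.07, 0.730, 0.569 and 0.408 nRPKM on 19 to 62 reads. Its partners were at the floor, with 0, 3, 0 and 1 reads for Tlr1 and 1 read in each library for Tlr6. Tlr9, the receptor for unmethylated DNA in endosomes, also had 1 read in each library. Tlr1 and Tlr6 are neighbours and share 15.3% and 12.6% of their words with other genes, each most often with its partner. At this depth these 3 receptors were not detectable above the floor, which limits their RNA in the pool and says nothing of rare cells that may express them.

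The adaptors were all above 1 in each library. Ticam1 (TRIF), used by Tlr3 and Tlr4, had 5.43, 7.01, 6.33 and 3.62 nRPKM (5.59 ± 1.47). Myd88, used by most of the other Toll-like receptors, had 3.12, 3.84, 5.36 and 4.70 (4.26 ± 0.983). Tirap, which bridges Tlr2 and Tlr4 to Myd88, had 3.47, 4.20, 3.37 and 3.60 (3.66 ± 0.371, SD, n = 4). Myd88 lay above Ticam1 in library 4 and below it in the other 3. Myd88 and Tirap overlap genes on the other strand, with 9.16% and 10.7% of words shared.

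Of 32 further receptor and adaptor genes, 13 had a mean of at least 1 and none of the 17 tested was called for spread. The highest were Hsp90b1, a chaperone needed to fold Toll-like receptors (462 ± 125 nRPKM), Cd36, a scavenger receptor gene (213 ± 16.8), and the kinase gene Irak1, which acts directly after Myd88 (15.9 ± 1.58; SD, n = 4). Chosen after their values were seen, Traf6, the ubiquitin ligase of the same route, had 10.3 ± 1.65 nRPKM, whereas Ticam2 (TRAM), which links Tlr4 to Ticam1, had 2 to 6 reads per library.

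The NF-kB subunits were present at single-digit levels. Rela (p65), a transactivating subunit, had 7.44, 7.36, 6.12 and 4.30 nRPKM (6.31 ± 1.47). Nfkb1, the precursor of p50, had 3.99, 4.50, 4.85 and 5.02 (4.59 ± 0.454). Nfkb2, the precursor of p52, had 2.46, 2.26, 2.03 and 1.45 (2.05 ± 0.434, SD, n = 4). Nfkb2 shares 18.5% of its words with other genes, most often with a gene on the other strand. Relb, the p52 partner of the non-canonical route, had 1.34, 0.818, 0.780 and 0.585 on 21 to 60 reads. Rela, Nfkb2 and Relb had their lowest value in nRPKM in library 4. The scaling raises library 4 most, so the same must hold in CPM. Nfkb1 was highest there in nRPKM and lowest there in CPM.

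Inhibitors and feedback genes were near the same level as the subunits. Nfkbia, which holds NF-kB in the cytoplasm as IkB-alpha, had 2.73, 4.42, 2.12 and 2.84 nRPKM (3.03 ± 0.983). Tnfaip3 (A20), a ubiquitin-editing enzyme that ends the signal, had 3.20, 1.89, 1.67 and 1.82 (2.14 ± 0.711). Nfkbiz, a nuclear IkB that acts on a subset of targets such as Lcn2, had 1.40, 1.51, 1.16 and 1.87 (1.48 ± 0.295, SD, n = 4). Library 1 stood apart for Tnfaip3, with 300 reads against 136 to 161. Of 34 further NF-kB pathway genes, 28 had a mean of at least 1 and none of the 30 tested was called for spread. Tax1bp1, an A20 partner, led with 50.2 ± 15.3 nRPKM, then the kinase adaptor gene Tab2 with 32.9 ± 6.50 and the TNF receptor gene Tnfrsf1a with 12.7 ± 2.29 (SD, n = 4).

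Feedback genes of this pathway are known to carry NF-kB sites near their starts. The 250 bases upstream of RefSeq gene starts (GRCm38.p6) were therefore searched on both strands for a restricted form of the NF-kB (kappaB) motif. This form has 10 bases: Gs, then bases left free, then Ts and Cs. Other forms were not searched, so the bases not in capitals below and the other promoters may hold them. Promoters were found for 33 of the 45 genes, of which 4 held this form of the motif (Nfkbia, Tnfaip3, Nfkb2 and Tlr3), beside 1.65% of all 27025 genes with a promoter. Each of the 4 exceeded 1 nRPKM on average, and 20 of the 33 reached that level. Among all genes with a promoter that reached it, 142 of 8563 (1.66%) held the motif, much like the 1.65% above. The 4 promoters are shown to place the motif, in capitals, relative to the gene start at the 3′ end of each sequence.

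Nfkbia, chr12:55492648-55492897, minus strand: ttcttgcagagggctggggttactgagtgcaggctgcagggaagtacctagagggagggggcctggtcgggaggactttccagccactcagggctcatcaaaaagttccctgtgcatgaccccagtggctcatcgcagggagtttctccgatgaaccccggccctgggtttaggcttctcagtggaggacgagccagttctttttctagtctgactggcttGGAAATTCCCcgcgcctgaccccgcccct

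Tnfaip3, chr10:19015411-19015660, minus strand: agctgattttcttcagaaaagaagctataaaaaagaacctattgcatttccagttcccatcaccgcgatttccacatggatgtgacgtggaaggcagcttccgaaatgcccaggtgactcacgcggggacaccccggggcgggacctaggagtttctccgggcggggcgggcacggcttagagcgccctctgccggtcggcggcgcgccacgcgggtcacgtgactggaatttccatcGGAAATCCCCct

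Nfkb2, chr19:46304487-46304736, plus strand: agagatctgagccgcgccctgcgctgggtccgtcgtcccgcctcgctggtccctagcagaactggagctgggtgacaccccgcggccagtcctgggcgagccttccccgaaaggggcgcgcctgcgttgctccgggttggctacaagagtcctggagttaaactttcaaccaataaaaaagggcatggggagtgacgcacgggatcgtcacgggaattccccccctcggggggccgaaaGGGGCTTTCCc

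Tlr3, chr8:45410381-45410630, minus strand: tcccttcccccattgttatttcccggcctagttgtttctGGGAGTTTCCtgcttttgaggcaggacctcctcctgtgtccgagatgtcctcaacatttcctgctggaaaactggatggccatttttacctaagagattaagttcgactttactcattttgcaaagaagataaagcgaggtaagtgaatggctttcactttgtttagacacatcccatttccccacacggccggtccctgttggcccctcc

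The motif begins 29 bases before the start of Nfkbia, 12 before Tnfaip3, 11 before Nfkb2 and 211 before Tlr3, and another annotated start of Nfkb2 holds it too. The same promoters were searched on both strands for TTGCNNAA, a C/EBP-type motif, and CCGGAAGT, an ETS-type motif. The first was in 8 of 33 genes (C1s, C3, C9, Lcn2, Lyz1, Saa3, Tlr3 and Tlr6), beside 10.8% of all genes, and the second in 0 of 33, beside 3.23%. Among genes with a mean of at least 1 nRPKM, the first was in 4 of 20 members (C3, Lcn2, Lyz1 and Tlr3), beside 8.93%. The second was in 0 of these 20, beside 7.22% of all genes at that level. A match is a description of the sequence alone, and no binding was measured.

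Levels of partner genes of the same step were compared within libraries, as 9 pairs set by their known roles. Lyz2 exceeded Lyz1 by 6.33 ± 0.43 in log2(nRPKM + 1), Masp2 exceeded Masp1 by a difference of -2.02 ± 0.41 (Masp1 minus Masp2), and Rela exceeded Relb by 1.95 ± 0.20 (SD, n = 4). Nod1 exceeded Nod2 by 1.25 ± 0.23, Cfb exceeded C2 by 0.97 ± 0.04, Nfkb1 exceeded Nfkb2 by 0.88 ± 0.32 and C1s exceeded C1ra by 0.25 ± 0.12. These 7 differences had the same direction in 4 of 4 libraries. Each gave p = 0.125 in the two-sided exact sign-flip permutation test, the smallest p that 4 libraries allow, and an adjusted p of 0.161 over the 9 pairs (Benjamini-Hochberg), so none could pass a threshold of 0.05. Myd88 minus Ticam1 was -0.32 ± 0.47, from -0.72 to 0.30 (exact permutation p = 0.375, adjusted p = 0.422), and Tlr1 minus Tlr6, both at the floor, was 0.00206 ± 0.0413 (exact permutation p = 0.875). The pseudocount of 1 understates the differences of low genes such as C2, Masp1 and Nod2.

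**Figure D2:**
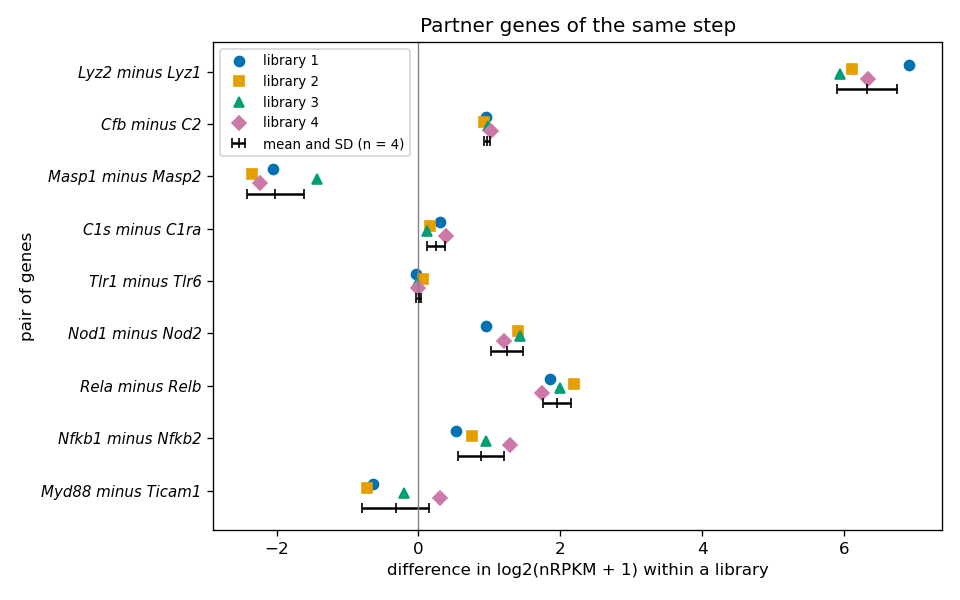
Difference in log2(nRPKM + 1) within each library for 9 pairs of partner genes, with 1 symbol per library and a bar for the mean and SD (n = 4). Lyz2 minus Lyz1 is the widest at 6.33, and the points of Myd88 minus Ticam1 lie on both sides of 0.

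Spread between libraries was tested for every gene with enough reads, by the ratio of its quasi-dispersion to that of genes of like abundance (edgeR quasi-likelihood). The test has low power with 4 libraries (the recovery in simulated counts is given with the methods). Of 13156 genes tested, 2 were called at an adjusted p under 0.05, Xist and Tsix (0.0152%), and of the 30 of the 45 genes that passed the filter on low counts, 0 were called. The filter needs reads in every library, so the 15 genes left out include those near the floor. At an unadjusted p under 0.05 were 4 of the 30, beside 5.13% of all genes tested. They were Cd59a (ratio 11.8, adjusted p = 0.529 in edgeR), Lyz1 (ratio 6.86, adjusted p = 0.764), Hc (ratio 6.04, adjusted p = 0.806) and Lcn2 (ratio 4.73, adjusted p = 0.876). DESeq2 marked 62 genes as dispersion outliers (0.471%), and Cd59a was the only one of the 45 among them.

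Cd59a was also called without the filter on low counts (edgeR adjusted p = 0.0442, with 66 of 20579 genes called, 0.321%). It remained a DESeq2 outlier without library 1 (33 genes marked, 0.248%) but not without library 2 (35, 0.263%), 3 (20, 0.15%) or 4 (55, 0.41%). In edgeR, leaving out library 1 or 4 gave 6 and 2 called genes (0.0451% and 0.0149%), none of them among the 45. At the other end, Cfb (ratio 0.0798), Tlr5 (0.0821), Nfkb1 (0.216) and Tirap (0.245) varied least of the 30. The median coefficient of variation of the 27 genes with a mean of at least 1 was 25.1%, beside 20.2% for all such genes.

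**Figure D3:**
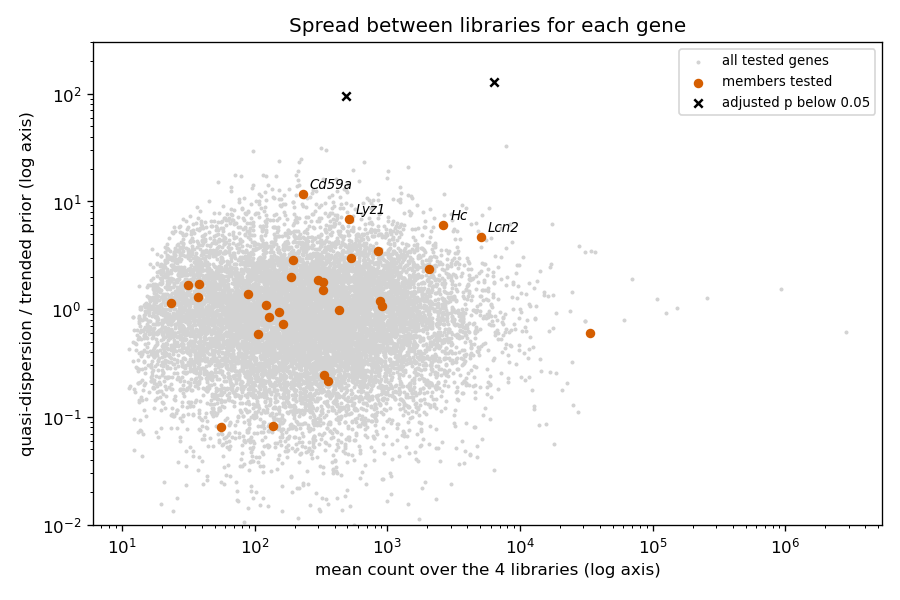
Ratio of quasi-dispersion to the trended prior against the mean count, both on log axes, for all 13156 genes tested (grey) and the 30 members tested (orange). Cd59a, at a ratio of 11.8, is the highest member and lies far below Xist and Tsix (crosses).

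The genes were not high and low in the same libraries. Of the 27 with a mean of at least 1, 6 (C3, Lyz1, Lyz2, Lcn2, Nod1 and Myd88) peaked in library 3 with their minimum in library 1 in nRPKM, beside 7.12% of all genes at that level. Another 6 (Masp2, Cfp, Cd55, Tlr4, Tirap and Nfkbia) peaked in library 2 with library 3 lowest (6.28% of all such genes). A further 4 (C1qbp, Cd14, Nfkb2 and Rela) peaked in library 1 with library 4 lowest (9.59%). These placements depended on the scaling. In CPM, 12 of the 27 had the same highest and lowest library as in nRPKM, beside 41.5% of all such genes. They were C1qbp, Cd14, Nfkb2, Rela, Lyz1, Myd88, Cfp, Tlr4, Lbp, Tlr3, Hc and Cd59a. Library 1 has the smallest scaling factor and library 4 the largest (1.40 times that of library 1). A gene highest in library 1 and lowest in library 4 in nRPKM is therefore always placed alike in CPM. The agreement of these 4 was thus fixed by the scaling. In each of the other sets, 2 of 6 were placed alike. C3, Lyz2, Lcn2 and Nod1 still peaked in library 3 in CPM, with library 2 (C3) or library 4 as the lowest. The counts describe 4 libraries and were not tested.

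**Figure D4:**
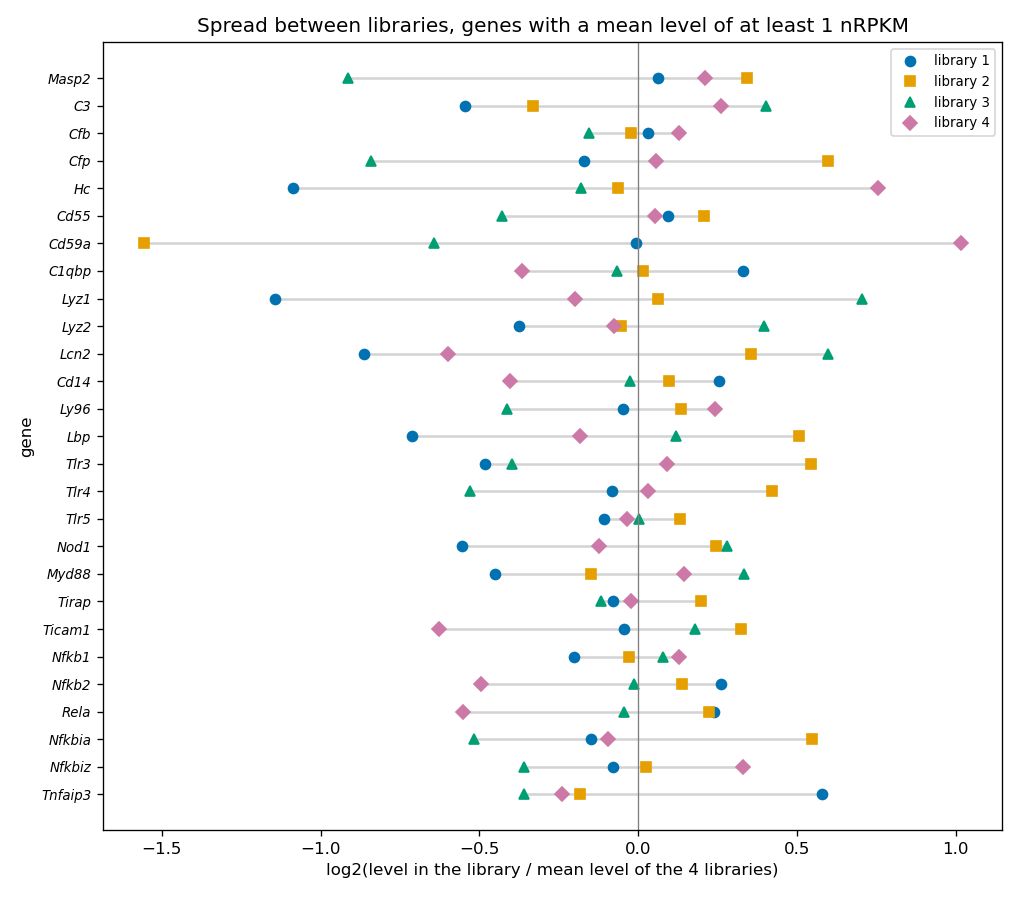
Level of each gene in each library relative to its mean over the 4 libraries, on a log2 scale, for the 27 genes with a mean of at least 1 nRPKM; grey lines join the lowest and highest library. Cd59a spans the widest range (5.96-fold) and Tlr5 the narrowest (1.18-fold).

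Markers of other cell types and of type II cells also differed between libraries. The summed type II markers had 10285, 17357, 22346 and 17132 nRPKM in libraries 1 to 4. Of the 12 markers, 6 peaked in library 2 and 3 in library 3. Without Sftpc the sum was 3985, 8980, 7512 and 6620, so its peak in library 3 in nRPKM, shared with the 6 genes above, rested on Sftpc. In CPM the sum without Sftpc was 15103, 28259, 28363 and 19287, with library 3 still highest, just above library 2. Library 1 was lowest in each case. The summed airway secretory markers had 342, 1066, 152 and 284 nRPKM. Of the 7 with a mean of at least 1 (Scgb1a1 led, then Bpifa1 and Cyp2f2), 4 peaked in library 2 and 6 had their minimum in library 3, and the sum without Scgb1a1 kept both ends.

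The summed leukocyte markers had 83.8, 75.4, 33.7 and 24.4 nRPKM. Of the 9 with a mean of at least 1, 4 peaked in library 1 and 4 in library 2, while 5 had their minimum in library 4 and 4 in library 3. Without Cd68 the sum was 48.5, 50.1, 18.1 and 13.9 nRPKM, with library 2 highest. In CPM it was 137, 115, 56.7 and 37.2 without Cd68, with library 1 highest. None of the 18 was at 0 reads in all libraries. Over the 14 of 18 with more than 3 reads in every library, ranges ran from 1.61-fold (Csf1r) to 8.34-fold (Laptm5), and those of C1qbp, Cd14, Nfkb2, Rela, Relb and Tlr2 from 1.58-fold to 2.61-fold. Csf1r and Laptm5 were named after their values were seen. Fewer cells of a type and less RNA per cell cannot be told apart in such pooled RNA. The part of these cell types in the members' spread was not tested.

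Other marker lists were highest in library 1. Tnfaip3 was highest there, as were the summed basal cell markers (149.5 against 20.9 to 103 nRPKM; Krt5, Krt6a and Krt14 led), the mesothelial markers (39.9 against 11.7 to 23.1; Upk1b, Msln and Gpm6a led), the mesenchymal markers (Dcn, Col1a1 and Col1a2 led) and the neutrophil markers (10.4 against 2.47 to 5.80; Ltf, S100a8 and Retnlg led). Lcn2, which is also a neutrophil gene, peaked in library 3. The part of these cells in the levels of Tnfaip3 and Lcn2 was not tested.

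**Figure D5:**
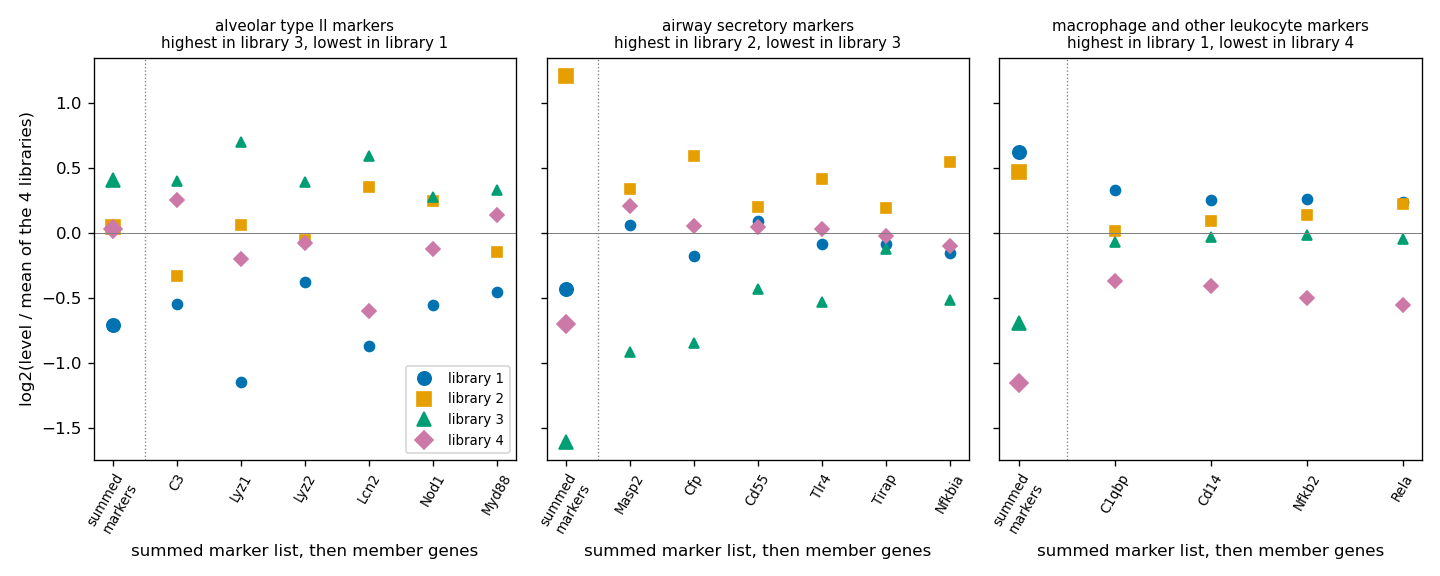
Summed level of 3 marker lists (large symbols, left of each dotted line) beside the member genes that share their highest and lowest library, each as log2 of the level over its mean of the 4 libraries. On this nRPKM scale the 6 genes beside the type II markers are lowest in library 1. The 4 beside the leukocyte markers are lowest in library 4. Genes were drawn because they share these libraries, so the match is fixed by the choice. The neutrophil sum, not drawn, has the same highest and lowest library as the leukocyte sum in nRPKM. The peaks of the type II and leukocyte sums rest on Sftpc and Cd68 in nRPKM, but in CPM they remain without these genes.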

How the data were processed

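RNA-seq of 4 libraries of 1 group was used. Per the file headers, the deposited count is the number of reads uniquely aligned to a gene model, and the other deposited value is an RPKM adjusted by a size factor (nRPKM). Per the submitters' processing notes, GSNAP and mm9 were used; their versions, the annotation, any filters and the use of strand are unstated. In 13253 genes with at least 10 reads per library, the value was a count times a library factor over a gene constant (within 1%).

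Symbols came from a RefSeq table of GRCm38.p6 by Entrez identifier (25035 of 28096 matched). Shared 50-base words came from GENCODE M21 transcripts, promoters from RefSeq. Spread was tested on counts in edgeR 4.0.16 (R 4.3.3): TMM, filterByExpr, intercept-only glmQLFit, quasi-dispersion over trended prior against F, Benjamini-Hochberg at 0.05. In simulated counts of 13156 genes with 200 changed in 1 library, the share recovered was 24% at 4-fold, 62% at 8-fold, 74% at 16-fold and 66% at 32-fold, with 0 false calls. Every simulated gene had the same coefficient of variation between libraries beyond counting error (24.9%). Real genes differ in it, so these shares may overstate the recovery in the data. DESeq2 1.42.0, no filter, other size factors, another pseudocount (0.1), other thresholds, CPM (counts scaled to the library total) and leaving out each library were alternatives; the newer quasi-likelihood method of edgeR, DESeq2 without each library, and each gene's highest and lowest library in CPM were added after the data were seen.

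Members and lists were chosen with earlier results of these data known. Named by rule were all members, the 3 highest genes of each of 14 lists (4 of pathways, 10 of cell type or sex-linked markers), and genes called for spread. Protein sequences were not used here.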

Additional observations from a re-analysis of the deposited data

Results flagged for a closer look

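In a group of 4 libraries, 1 value can lie so far from the nearest of the others that its gap, as a share of the whole range, exceeds Dixon's 95% critical value, which chance gives in about 1 of 20 groups. Of 86 named genes, 7 did so, and 4 of these were among the 45 described. Tnfaip3 had 3.20 nRPKM in library 1 against 1.67 to 1.89 in the others. The other members rest on very few reads: Masp1 in library 1 (0.0713 nRPKM, 4 reads against 1 in each of the others), C7 in library 1 (0.0902 nRPKM, 5 reads against 0) and Cfd in library 3 (0.0517 nRPKM, 1 read against 0). The rate of 1 in 20 does not apply to such counts. A gene with reads in a single library, such as C7 or Cfd, always exceeds the critical value. Tnfrsf1a was low in library 4 (9.25 nRPKM against 13.4 to 14.1). Xist was high (66.3 nRPKM) and Uty at 0 nRPKM in library 3.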

How the results depend on the processing

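No paired comparison between groups was possible because there is a single group and the labels carry no replicate numbers. The count of 27 genes at a mean of at least 1 nRPKM became 14 at a threshold of 5 and stayed within 1.5 times at a threshold of 0.5, in CPM and without any 1 library. The 2 genes called for spread became 66 without the filter on low counts and 62 as outliers of dispersion in DESeq2. With 1 library left out, the count ran from 0 (without library 2 or 3, with 640 and 619 genes at an unadjusted p under 0.05 in edgeR and 35 and 20 DESeq2 outliers) to 6 (without library 1). DESeq2 size factors in the edgeR fit and its newer quasi-likelihood method each gave 2. Among the 45 genes, 0 called became 1 (Cd59a) without the filter and 1 by DESeq2. With any 1 library left out, the count was 0 in edgeR. In DESeq2 it was 1 (Cd59a) without library 1 and 0 without library 2, 3 or 4. Of the 9 pairs, 8 kept their direction in all 6 alternatives. Tlr1 minus Tlr6 reversed to -0.0106 with a pseudocount of 0.1, to -0.00723 in CPM and to -0.0176 without library 2 (from -0.0176 to 0.0117 with any 1 library left out), all on 0 to 3 reads. Leaving out a library moved 6 of the 45 means by over 1.5 times: Cd59a from 7.05 to 4.64 (without library 4), Cd46 from 0.662 to 0.357 (without library 2), and Masp1, Cfd, C7 and Tlr1, which have 1 to 7 reads in all. In CPM, an alternative added after the data were seen, 12 of 27 genes kept their highest and lowest library.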
